A study of Rattus norvegicus with 12 samples.

Results

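Measured in rat periaqueductal grey were 41596 genes, assembled loci without a symbol among them. From these, 9 that encode neuropeptide precursors with a known part in pain control were taken as a group. They were Tac1, Cck, Nts, Sst, Vip, Gal, Adcyap1, Crh and Npy, and other peptide genes, such as Pomc, were left out. They were chosen by name. The level of a gene was the sum of TPM (an abundance scaled to transcript length and library total) over its transcripts in each of 12 libraries. The animals were male Sprague Dawley rats, 6 of them morphine-sired (offspring of fathers given morphine) and 6 saline-sired (offspring of fathers given saline), and the offspring themselves carry no treatment label. PolyA RNA of dissected tissue was sequenced. The study's title concerns how chronic morphine in the father bears on pain relief by morphine. The labels give no age, litter or sire, so animals of 1 group may share a father, and the tests treat all 12 as independent. A difference is the mean of log2(TPM + 1) in morphine-sired rats less that in saline-sired rats, and ± after it is the standard error.

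The periaqueductal grey is a ring of midbrain grey matter around the cerebral aqueduct that sends descending control to the spinal cord, and it is a major site at which opioids relieve pain. Neuropeptides are cut from longer precursors, stored in dense-core vesicles, released alongside fast transmitters and sensed by G-protein-coupled receptors. Some of these peptides, such as substance P and cholecystokinin, are known mainly for exciting neurons, and others, such as somatostatin, galanin and neuropeptide Y, mainly for inhibiting them. Each is made by particular sets of neurons.

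Several peptide genes are textbook targets of cyclic AMP signalling, and the somatostatin gene is the classic example. Promoter windows from RefSeq (build GRCr8, 250 bases before to 50 bases after the annotated start) were found for 7 of the 9 genes, all but Cck and Crh. They were searched on both strands for the cyclic AMP response element TGACGTCA, for its core TGACGTC and for its half-site TGACG. The half-site lies within the core and the core within the full element, so the matches are nested. The full element stood in Sst alone, at base 253 of the window, which is position 3 after the annotated start, and 1.83% of 33469 rat promoters hold it. The core stood in Sst and in Vip, at base 154, against 3.22% of all promoters. The half-site stood in 5 of the 7 (Tac1, Nts, Sst, Vip and Gal), against 21.2% of all promoters. The AP-1 site TGANTCA, searched the same way, stood in Nts alone, at base 39, against 7.33% of all promoters, and it overlaps none of the other matches. A match describes the letters only. The windows depend on the annotated start, and bases outside them were not searched, so a gene without a match may hold the element elsewhere. Shown here are Sst and Vip, which hold the core, and Gal and Nts, whose levels varied with Sst across the libraries. Spearman's rho with Sst over the 12 libraries was 0.80 for Gal and 0.82 for Nts. For Vip it was 0.50, and for Tac1, which also holds the half-site, it was 0.24. Whether any match bears on these levels was not tested. The capitals mark the longest of the nested matches, which in Nts is the half-site read on the opposite strand.
Sst, chr11:90461296-90461595, plus strand: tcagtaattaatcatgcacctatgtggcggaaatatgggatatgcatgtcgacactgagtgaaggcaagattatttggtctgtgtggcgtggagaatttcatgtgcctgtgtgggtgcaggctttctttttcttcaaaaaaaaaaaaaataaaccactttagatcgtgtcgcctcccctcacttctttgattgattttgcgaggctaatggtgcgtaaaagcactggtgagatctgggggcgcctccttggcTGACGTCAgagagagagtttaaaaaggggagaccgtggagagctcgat
Vip, chr1:44470230-44470529, plus strand: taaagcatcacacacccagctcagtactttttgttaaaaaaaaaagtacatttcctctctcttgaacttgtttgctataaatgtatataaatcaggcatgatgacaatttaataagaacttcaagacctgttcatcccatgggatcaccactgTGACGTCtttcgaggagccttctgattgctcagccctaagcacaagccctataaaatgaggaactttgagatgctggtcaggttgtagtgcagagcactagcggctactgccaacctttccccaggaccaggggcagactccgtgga
Gal, chr1:210084523-210084822, minus strand: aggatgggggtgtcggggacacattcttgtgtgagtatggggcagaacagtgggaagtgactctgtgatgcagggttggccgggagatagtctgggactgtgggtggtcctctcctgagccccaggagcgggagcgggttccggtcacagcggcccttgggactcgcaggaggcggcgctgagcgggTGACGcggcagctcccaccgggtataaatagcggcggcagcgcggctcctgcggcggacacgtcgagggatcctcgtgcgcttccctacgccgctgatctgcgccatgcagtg
Nts, chr7:39460839-39461138, minus strand: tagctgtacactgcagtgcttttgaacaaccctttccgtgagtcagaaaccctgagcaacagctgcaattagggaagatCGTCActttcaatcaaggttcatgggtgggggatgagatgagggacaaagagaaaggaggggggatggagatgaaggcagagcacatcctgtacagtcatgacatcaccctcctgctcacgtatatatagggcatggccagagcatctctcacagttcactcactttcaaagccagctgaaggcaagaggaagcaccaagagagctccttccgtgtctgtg

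The libraries differed in their levels of marker genes of neighbouring nuclei and tissue, and the part of these in the levels of the 9 genes was not tested except where a value is given. The summed level of 4 serotonergic markers, which label the dorsal raphe beneath the aqueduct, spanned 0.987 to 388 TPM in morphine-sired and 0.821 to 909 TPM in saline-sired libraries, and Fev was at 0 in 4 libraries. It was highest in morphine-sired 2 (388), saline-sired 2 (909) and saline-sired 3 (399). Cholinergic motor markers summed to 54.4 to 139 TPM in 5 morphine-sired and 84.5 to 117 TPM in 4 saline-sired libraries, but to 5.93 in morphine-sired 1, 4.22 in saline-sired 1 and 3.19 in saline-sired 6. Morphine-sired 3 held 348 TPM of Oxt and 123 TPM of Avp, hypothalamic peptide genes that reached at most 17.8 and 28.0 TPM in any other library. Of the other hypothalamic markers, Pomc was also highest there (7.59 TPM), but Hcrt (10.5), Pmch (0.940) and Agrp (0.352) were not. The latter reached 23.5, 2.35 and 1.68 TPM in other libraries. Saline-sired 2 held 166 TPM of the Purkinje cell gene Pcp2, and the choroid plexus gene Ttr stood at 1756 TPM in morphine-sired 2 and 413 TPM in saline-sired 2. Midbrain transcription factors were present in every library, at a sum of 40.3 to 79.8 TPM in morphine-sired and 32.7 to 103 TPM in saline-sired rats. No marker gene of any list was at 0 in all 12 libraries. Depth was 4.39 to 6.03 gigabases a library. In such tissue, fewer cells of a type and less RNA per cell cannot be told apart.

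**Figure D1:**
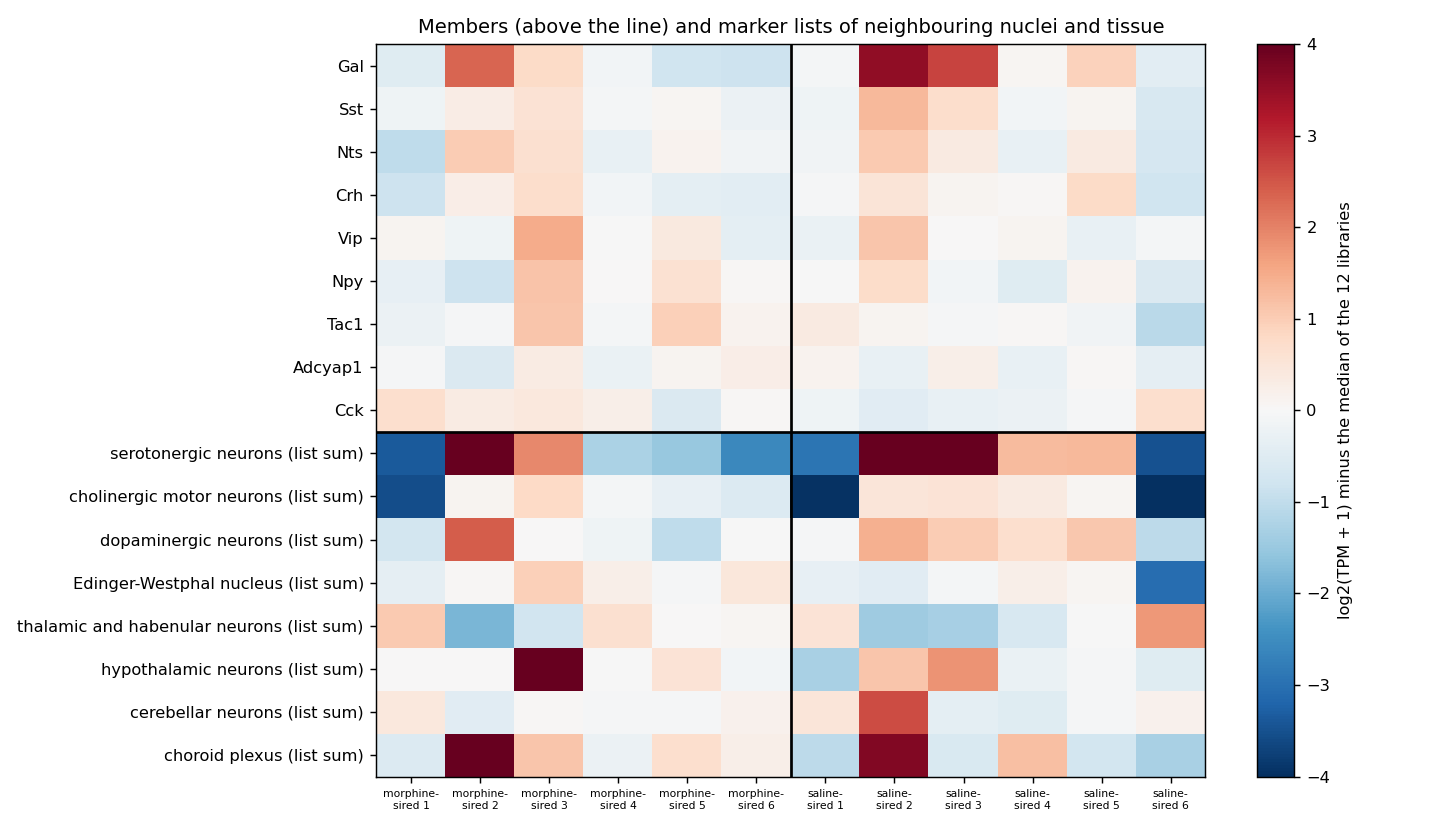
Heat map of the 9 neuropeptide genes (above the horizontal line) and of summed marker lists (below it) in 12 libraries, with the 6 morphine-sired libraries left of the vertical line and the 6 saline-sired libraries right of it. Colour gives log2(TPM + 1) minus the median of the 12 libraries, and the scale ends at 4 either way. Gal and the serotonergic list are darkest in the same 3 libraries (morphine-sired 2, saline-sired 2 and saline-sired 3), and the hypothalamic list is darkest in morphine-sired 3.

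None of the 9 genes passed the test between morphine-sired and saline-sired rats. All 9 were tested, 0 passed limma's adjusted p of 0.05 over the 24540 genes tested (adjusted p 0.9998 for each), and 0.0% of all genes tested passed. At an unadjusted p under 0.05 the count of members was also 0, against 790 of 24540 genes (3.22%). The groups overlapped for all 9, and they did not overlap for 22 genes of all those tested (0.0896%). The mean was higher in morphine-sired rats for 5 members and lower for 4. Their median log2 difference was 0.06, beside -0.00 for all genes tested. The intervals were wide: the half-width of the 95% interval was 0.35 for Adcyap1, the narrowest, and 1.61 for Gal, the widest, beside a median of 0.30 over all genes. An exact permutation test of 6 against 6 animals can reach 0.00216.

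**Figure D2:**
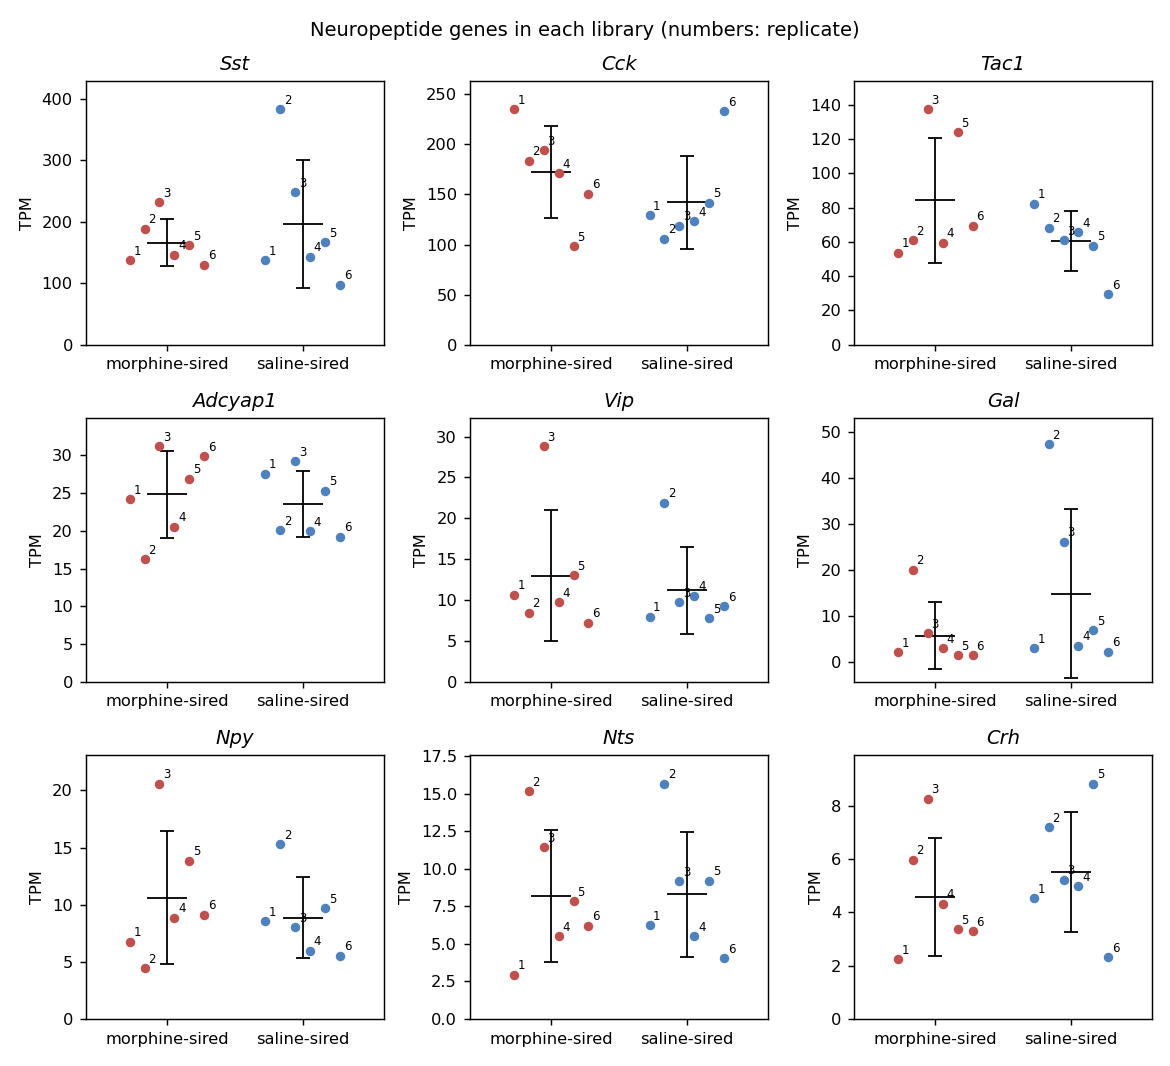
TPM of each gene in each library, with morphine-sired rats on the left (red) and saline-sired rats on the right (blue). The bars are mean ± SD (n = 6 each), the numbers are replicates, and the panels run from the highest mean (Sst) to the lowest (Crh) with their own axes. The groups overlap in every panel, and morphine-sired 3 is the highest library for Tac1, Adcyap1, Vip and Npy.

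**Figure D3:**
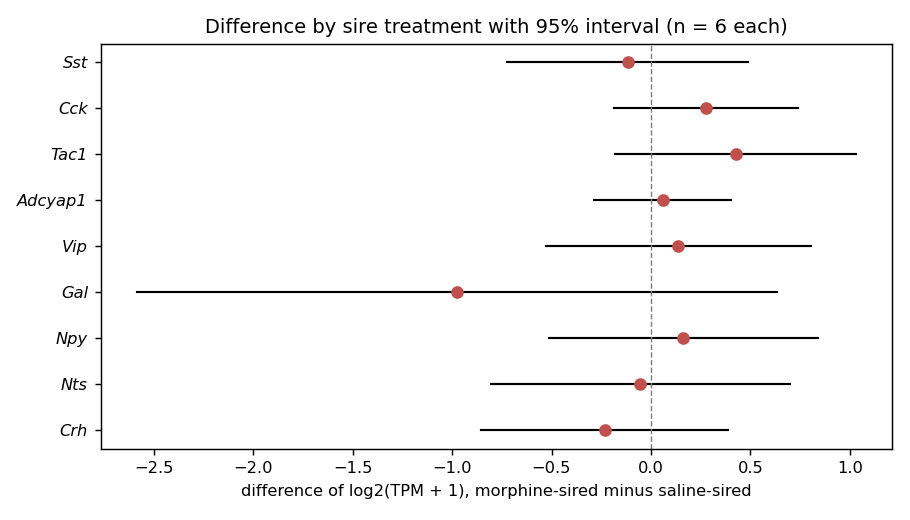
Mean log2(TPM + 1) in morphine-sired rats less that in saline-sired rats (horizontal axis) for each gene from the highest mean level at the top to the lowest at the bottom. Points are limma estimates and lines are 95% intervals (n = 6 each). Every interval crosses 0, from the narrowest in Adcyap1 (-0.29 to 0.40) to the widest in Gal (-2.59 to 0.64).

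Tac1 (Rnor_6.0, chr4:33638709-33646819, plus strand) encodes substance P and neurokinin A, excitatory tachykinins that mark nociceptive pathways. It spanned 53.6 to 137 TPM with a median of 65.3 in morphine-sired rats, and 29.3 to 82.2 TPM with a median of 63.3 in saline-sired rats. Morphine-sired 3 (137) and morphine-sired 5 (124) stood above all other libraries and saline-sired 6 (29.3) below them, while the other 9 lay between 53.6 and 82.2. The means were 84.1 ± 36.6 in morphine-sired and 60.7 ± 17.5 TPM in saline-sired rats (SD, n = 6 each), and the log2 difference was 0.43 ± 0.28 (limma's unadjusted p = 0.153). An exact permutation test gave a p of 0.229. Without morphine-sired 3 the difference was 0.27, and without saline-sired 6 it was 0.23. Those libraries also held the highest and the lowest sum of the Edinger-Westphal markers Ucn and Cartpt, at 2693 and 165 TPM. Morphine-sired 5 had a sum of 1333 TPM, within the range of the other libraries. The part of these sums in the result was not tested.

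The Tac1 precursor is made in several spliced forms, which in the rat decide whether neurokinin A and its longer relatives are made beside substance P. Of the 7 exons, exon 4 (45 bases, chr4:33640972-33641016) and exon 6 (54 bases, chr4:33642873-33642926) were optional, and exon 6 carries neurokinin A. The form with exon 6 and without exon 4, known as gamma, made up 56.7% of Tac1 TPM over all libraries. The assembled form with neither exon held 17.6%, the form with both (beta) 14.4%, and the form with exon 4 alone (alpha) 11.2%. Transcripts with exon 6 held 69.4 ± 9.15% of Tac1 in morphine-sired and 69.5 ± 6.09% in saline-sired rats (SD, n = 6 each), and more than 50% in all 12 libraries. The difference of -0.13 percentage points had a p of 0.978 in an exact permutation test, added after the values were seen. Transcripts with exon 4 held 26.2 ± 4.44% in morphine-sired and 26.4 ± 4.42% in saline-sired rats (SD; p = 0.944 by the exact permutation test, n = 6 each). Of the 16 transcripts of the 9 genes that were tested, the 4 forms of Tac1 among them, 0 passed the adjusted p of limma over 50419 transcripts (0.00198% of all passed), and 0 were under 0.05 unadjusted (3.77% of all). The share of a form rests on how the authors' software divided reads between overlapping transcripts.

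**Figure D4:**
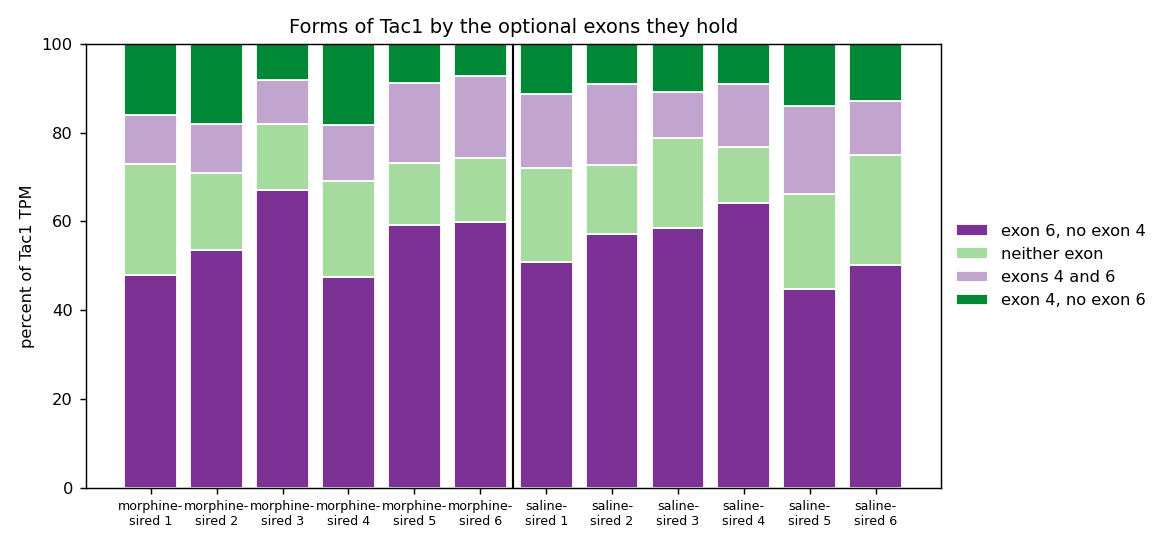
Share of Tac1 TPM (percent, vertical axis) held by each of 4 forms, named by the optional exons they hold, in the 6 morphine-sired libraries (left of the line) and the 6 saline-sired libraries (right). The form with exon 6 and no exon 4 is the largest in every library, at 44.9% to 67.1%.

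Cck (chr8:130120523-130127392, minus strand) encodes cholecystokinin, which is known for opposing opioid pain relief in this region. It spanned 98.6 to 235 TPM with a median of 178 in morphine-sired rats, and 106 to 233 TPM with a median of 126 in saline-sired rats. Morphine-sired 1 (235) and saline-sired 6 (233) were the highest, and the lowest was morphine-sired 5. In morphine-sired rats 5 of 6 libraries lay above the saline-sired median, but the groups overlapped throughout. The means were 172 ± 45.7 TPM in morphine-sired and 142 ± 46.1 TPM in saline-sired rats (SD, n = 6 each), and the log2 difference was 0.28 ± 0.21 (limma's unadjusted p = 0.215, and 0.258 by the exact permutation test). It was 0.18 without morphine-sired 1, 0.43 without morphine-sired 5 and 0.43 without saline-sired 6, with unadjusted p of 0.414, 0.0369 and 0.0351 from limma, and every adjusted p was at least 0.889. The highest libraries of Cck also had the highest sums of thalamic and habenular markers. These were 266 TPM in morphine-sired 1 and 435 TPM in saline-sired 6, against 35.9 to 201 TPM in the other 10. Prkcd (116 and 218 TPM), Lef1 and Gbx2 were highest in those libraries, but not every marker of the list was. Tcf7l2 was highest in saline-sired 6 (151 TPM). In morphine-sired 1 it was at 91.5 TPM, below saline-sired 1 (119) and morphine-sired 4 (109), 5 (105) and 6 (93.0). Pou4f1, at 3.17 TPM in morphine-sired 1 and 3.23 TPM in saline-sired 6, was the lowest of each group. The part of these markers in the result was not tested.

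Nts (chr7:44111151-44121130, minus strand) encodes neurotensin, a peptide that relieves pain when it is applied to the periaqueductal grey. It spanned 2.96 to 15.2 TPM with a median of 7.03 in morphine-sired rats, and 4.04 to 15.7 TPM with a median of 7.70 in saline-sired rats. The highest libraries were morphine-sired 2 and saline-sired 2, so each group held one of them. The means were 8.19 ± 4.43 TPM in morphine-sired and 8.31 ± 4.16 TPM in saline-sired rats (SD, n = 6 each), and the log2 difference was -0.05 ± 0.35 (limma's unadjusted p = 0.881), with a limma value of 0.21 when the mean log2 level of the serotonergic markers was a term. It was also positive without morphine-sired 1 (0.16), without morphine-sired 4 (0.018) or without saline-sired 2 (0.14), and it was lowest without morphine-sired 2 (-0.24).

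Sst (chr11:80358211-80359444, plus strand) encodes somatostatin, an inhibitory peptide of interneurons and the gene whose promoter holds the full cyclic AMP element. It spanned 130 to 231 TPM with a median of 154 in morphine-sired rats, and 97.5 to 383 TPM with a median of 155 in saline-sired rats. Saline-sired 2 (383) stood far above the next library, saline-sired 3 (249), and saline-sired 6 was the lowest, so the saline-sired group held both ends. The means were 166 ± 38.2 TPM in morphine-sired and 196 ± 105 TPM in saline-sired rats (SD, n = 6 each), and the log2 difference was -0.12 ± 0.28 (limma's unadjusted p = 0.681). With 1 library left out in turn the difference ran from -0.29 without saline-sired 6 to 0.10 without saline-sired 2.

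Gal (chr1:218652917-218657925, minus strand) encodes galanin, an inhibitory peptide that serotonergic neurons of the rat dorsal raphe also make. It spanned 1.36 to 20.0 TPM with a median of 2.42 in morphine-sired rats, and 2.14 to 47.3 TPM with a median of 5.15 in saline-sired rats. The libraries fell into 2 sets: morphine-sired 2 (20.0), saline-sired 2 (47.3) and saline-sired 3 (26.1) were high, and the other 9 lay between 1.36 and 6.87. The highest library exceeded the lowest 34.8-fold, the widest span of the 9 genes, and 0.864% of all genes tested varied more within groups. The means were 5.62 ± 7.27 TPM in morphine-sired and 14.8 ± 18.3 TPM in saline-sired rats (SD, n = 6 each), and the log2 difference was -0.98 ± 0.74 (limma's unadjusted p = 0.213, and 0.242 by the exact permutation test). The same 3 libraries had the highest serotonergic sums, at 388 TPM in morphine-sired 2, 909 TPM in saline-sired 2 and 399 TPM in saline-sired 3, against at most 76.8 in the other 9. With the mean log2 level of those markers as a term the difference was -0.34. Without saline-sired 2 it was -0.49, without morphine-sired 2 it was -1.41 (limma's unadjusted p = 0.0639), and without morphine-sired 1, saline-sired 1 and saline-sired 6 it was -1.54.

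**Figure D5:**
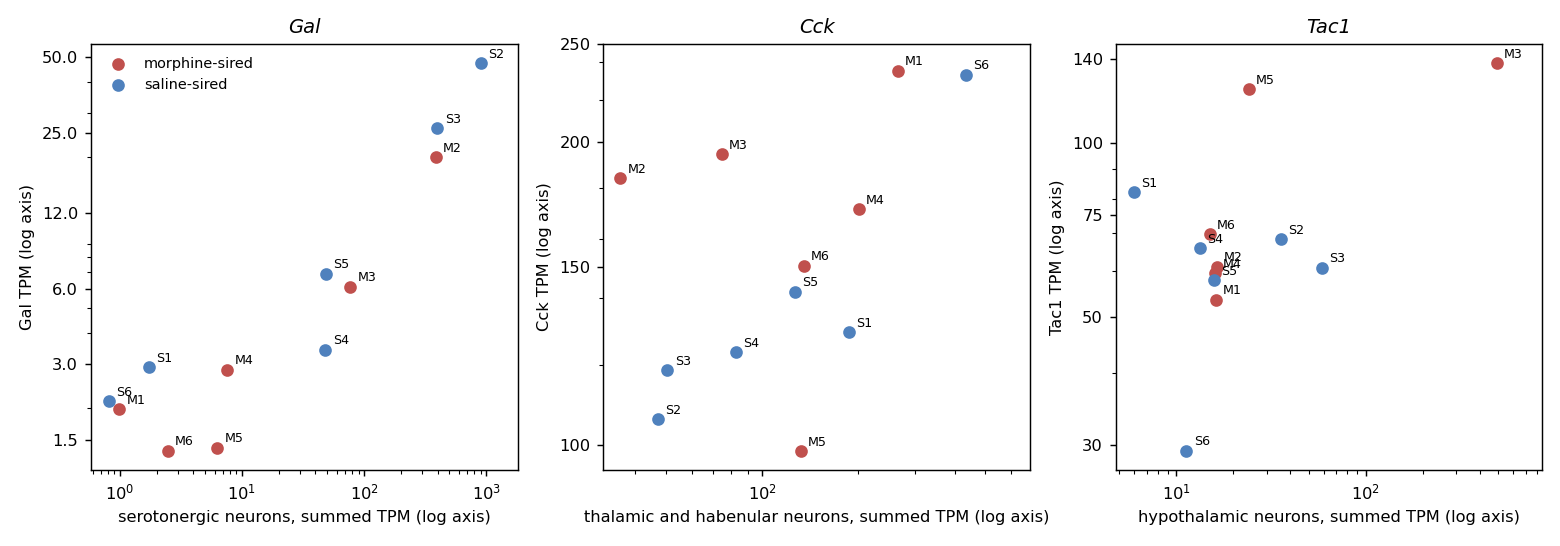
TPM of Gal, Cck and Tac1 (vertical axes, log scale) against the summed TPM of serotonergic, thalamic and habenular, and hypothalamic markers (horizontal axes, log scale) in each morphine-sired (red, M) and saline-sired (blue, S) library. Gal is at 20.0 TPM or more only in M2, S2 and S3, where the serotonergic sum is 388 TPM or more. Cck is highest in M1 and S6, where the thalamic and habenular sum is 266 and 435 TPM. Tac1 is highest in M3, where the hypothalamic sum is 491 TPM. M5, the next in Tac1 (124 TPM), has a hypothalamic sum of 24.1 TPM, and S3, the next in that sum (58.7 TPM), has Tac1 at 60.9 TPM.

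Vip (chr1:42169501-42177582, plus strand) encodes vasoactive intestinal peptide, made by a set of neurons in the ventral periaqueductal grey. It spanned 7.23 to 28.8 TPM with a median of 10.2 in morphine-sired rats, and 7.80 to 21.9 TPM with a median of 9.49 in saline-sired rats. Morphine-sired 3 (28.8) and saline-sired 2 (21.9) stood apart from the other 10, which lay at 13.0 or less. The means were 13.0 ± 8.00 TPM in morphine-sired and 11.2 ± 5.35 TPM in saline-sired rats (SD, n = 6 each), and the log2 difference was 0.14 ± 0.31 (limma's unadjusted p = 0.660). With 1 library left out in turn it ran from -0.11 without morphine-sired 3 to 0.34 without saline-sired 2. One annotated transcript held 84.8% of Vip.

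Adcyap1 (chr9:121706979-121725716, minus strand) encodes PACAP, a relative of vasoactive intestinal peptide that sensitizes pain pathways. It was the steadiest of the 9, at 16.2 to 31.2 TPM with a median of 25.6 in morphine-sired rats and 19.2 to 29.2 TPM with a median of 22.7 in saline-sired rats. The lowest and the highest library were both morphine-sired, so that group enclosed the other, and the highest exceeded the lowest 1.92-fold. The means were 24.8 ± 5.71 TPM in morphine-sired and 23.6 ± 4.35 TPM in saline-sired rats (SD, n = 6 each), and the log2 difference was 0.06 ± 0.16 (limma's unadjusted p = 0.720). Its level was divided between 4 transcripts, of which 2 were assembled, and the share of single transcripts swung widely, up to 62.0% and down to 0 for one of them. Single forms of Adcyap1 are therefore uncertain, and with annotated transcripts alone the difference was -0.02, as it was -0.011 without morphine-sired 3, against 0.17 without morphine-sired 2.

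Crh (chr2:104459999-104461863, minus strand) encodes corticotropin-releasing hormone, the peptide that starts the stress response and drives defensive behaviour from this region. It was the least abundant, at 2.24 to 8.28 TPM with a median of 3.85 in morphine-sired rats and 2.31 to 8.84 TPM with a median of 5.11 in saline-sired rats. Morphine-sired 3 and saline-sired 5 were the highest, and morphine-sired 1 and saline-sired 6 were the lowest, so both groups spanned nearly the same range. The means were 4.58 ± 2.202 TPM in morphine-sired and 5.52 ± 2.26 TPM in saline-sired rats (SD, n = 6 each), and the log2 difference was -0.23 ± 0.29 (limma's unadjusted p = 0.430). The difference was -0.093 without morphine-sired 1, -0.098 without saline-sired 5 and -0.15 without saline-sired 2, but -0.40 without morphine-sired 3 and -0.41 without saline-sired 6. It was -0.056 with the serotonergic term and -0.36 without morphine-sired 1, saline-sired 1 and saline-sired 6. Mean read depth over its transcript was 4.67 to 19.6 a base, among the lowest of the members.

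Npy (chr4:79557854-79565097, plus strand) encodes neuropeptide Y, an inhibitory peptide of the feeding and pain systems. It spanned 4.45 to 20.6 TPM with a median of 8.99 in morphine-sired rats, and 5.55 to 15.3 TPM with a median of 8.30 in saline-sired rats. Morphine-sired 3 and saline-sired 2 were the highest, and the groups overlapped. The means were 10.6 ± 5.80 TPM in morphine-sired and 8.85 ± 3.53 TPM in saline-sired rats (SD, n = 6 each), and the log2 difference was 0.16 ± 0.31 (limma's unadjusted p = 0.608). It was -0.044 without morphine-sired 3, but 0.32 without saline-sired 2 and 0.35 without morphine-sired 2. A second gene model, LOC100912228 (chr4:79573998-79581208, plus strand), lies beside it with the same number of exons, of which the middle ones have the same lengths of 188 and 81 bases, and its level was 1.07 to 1.16 times that of Npy in every library. The level of Npy is uncertain for that reason. Summed, the 2 models stood at 22.5 ± 12.1 TPM in morphine-sired and 18.7 ± 7.60 TPM in saline-sired rats (SD, n = 6 each), and the log2 difference was 0.18 (p = 0.628, exact permutation test).

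Within a library, TPM is per length, so the genes can be ranked. By mean TPM over the 12 libraries the order was Sst (181), Cck (157), Tac1 (72.4), Adcyap1 (24.2), Vip (12.1), Gal (10.2), Npy (9.73), Nts (8.25) and Crh (5.05). The place of Npy and its tests against its neighbours are uncertain, since they leave out LOC100912228. Summed with that model it had a mean of 20.6 TPM, between Adcyap1 and Vip. In an exact sign-flip permutation test of the difference within libraries, adjusted over the 8 pairs of neighbours, 4 pairs passed. Cck stood above Tac1 in 11 of 12 libraries (adjusted p = 0.0026), Tac1 above Adcyap1 in 12 (0.00195), Adcyap1 above Vip in 11 (0.00293) and Nts above Crh in 12 (0.00195), each by the exact permutation test. Sst and Cck did not differ beyond their spread (Sst higher in 8 libraries, adjusted p = 0.499), nor did Vip and Gal (0.0789), Gal and Npy (0.242) or Npy and Nts (0.296), by the same exact permutation test. Gal had the higher mean but was above Npy in 3 libraries only, those in which it was high. The step from Adcyap1 to Vip did not pass with annotated transcripts alone, where the log2 difference was 0.09.

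The 9 genes varied more than most. The SD of log2 values within groups was above the median of all genes tested (0.241) for 9 of 9, and also above the median of the 10847 genes at 10 TPM or more (0.150). The share of tested genes that varied more was 8.44% for Nts, 12.3% for Npy, 12.7% for Vip, 16.2% for Crh, 16.3% for Tac1 and for Sst, 26.9% for Cck and 39.8% for Adcyap1. The extremes came often from the same libraries: morphine-sired 3 was among the 3 highest for 8 of the 9 genes, saline-sired 2 for 6, and saline-sired 6 among the 3 lowest for 6.

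Several members varied together across the 12 libraries. Of 36 pairs, 6 passed an adjusted p of 0.05 for Pearson's r of log2(TPM + 1) (permutation test with 100000 resamples, two-sided), 5 passed for Spearman's rho, and 10 were under 0.05 unadjusted for r. Nts went with Sst (r = 0.81, adjusted p = 0.0216; rho = 0.82, adjusted p = 0.0218, permutation tests) and r was 0.81 without the 2 libraries farthest in Nts. Within groups that r was 0.78 in morphine-sired and 0.96 in saline-sired libraries. Nts also went with Crh (r = 0.81, adjusted p = 0.0216; rho = 0.85, adjusted p = 0.0218, permutation tests), with r = 0.72 without the same 2 libraries and within groups 0.84 in morphine-sired and 0.80 in saline-sired libraries.

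Npy went with Vip (r = 0.76, adjusted p = 0.0338, permutation test) and with Tac1 (r = 0.73, adjusted p = 0.0437, permutation test), but the rho of 0.37 and 0.59 had adjusted p of 0.447 and 0.218. The first relation rests on morphine-sired 3 and saline-sired 2, since r was 0.23 without them, and the second had r = 0.53 without morphine-sired 3 and saline-sired 6. The other 2 of the 6 pairs were Gal with Sst and Gal with Nts. Because the libraries fell into 2 sets by Gal, no r over all 12 is given for them. By ranks over all 12, Gal passed with Sst (rho = 0.80, adjusted p = 0.0255) and with Crh (rho = 0.83, adjusted p = 0.0218) and not with Nts (rho = 0.73, adjusted p = 0.0508, permutation tests). Within the 9 lower libraries r was 0.60 for Gal with Sst, 0.58 for Gal with Nts and 0.89 for Gal with Crh, a description chosen after the data were seen. Sst with Crh passed by ranks alone (rho = 0.78, adjusted p = 0.0339; r = 0.69, adjusted p = 0.0631, permutation tests), and its r was 0.78 without saline-sired 2 and 3, and within groups 0.90 in morphine-sired and 0.66 in saline-sired libraries.

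Cck had a negative r with all 8 others, the lowest -0.47 with Sst, and none passed (the smallest adjusted p was 0.318, permutation test). Some signs rest on 2 libraries: without morphine-sired 1 and saline-sired 6, the highest in Cck, r was 0.29 with Crh and 0.088 with Nts. It stayed negative with Sst (-0.21), Npy (-0.14), Adcyap1 (-0.098), Gal (-0.077) and Vip (-0.0085). With Tac1 r was -0.45 over all libraries, and -0.66 without morphine-sired 3 and saline-sired 6, the farthest in Tac1. Within groups the r with Tac1 was -0.51 in morphine-sired and -0.90 in saline-sired libraries. Within morphine-sired libraries alone Cck had a positive r with 4 genes (0.38 with Gal, 0.12 with Crh, 0.11 with Sst and 0.086 with Vip), while within saline-sired libraries every r was negative. Without morphine-sired 1, saline-sired 1 and saline-sired 6, the libraries low in cholinergic markers, none of the 36 pairs passed over the remaining 9, and without morphine-sired 2 and saline-sired 2 there were 2.

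Among 11938 genes with a symbol and a mean of at least 5 TPM, those with the highest r to each member over the 12 libraries are given as a description. The highest of so many values over 12 libraries can be large by chance, and what chance would give was not tested. Gal was closest to Fev, a serotonergic marker gene (r = 0.97, with 0 to 19.1 TPM in morphine-sired and 0 to 49.0 TPM in saline-sired rats), and to Gch1 (r = 0.97), though its libraries fall into 2 sets. Its r with Fev was 0.93 without the 2 farthest, saline-sired 2 and saline-sired 3. Morphine-sired 2, also high in Gal, stayed in, so that value can rest on 1 library. Spearman's rho with Fev over all 12 was 0.86. Sst was closest to Calcr (r = 0.97) and Nxph4 (0.93), Nts to Drd2 (0.90) and Hmox1 (0.89), and Crh to Nfs1 (0.91) and Ctdspl (0.91). The symbol Nfs1 stands at more than 1 locus, and this r is that of the entry at 27.2 to 32.4 TPM. Another entry was at 27.9 TPM in saline-sired 5, the highest library of Crh, and at 37.0 TPM in saline-sired 6, among its lowest. Tac1 was closest to Pcgf5 (0.96) and Hmgn5 (0.95), Cck to Zfp804a (0.87) and Sync (0.84), and Adcyap1 to Kat8 (0.90) and Sdr39u1 (0.90). Without the 2 libraries farthest in each member, these were 0.95 and 0.84 for Tac1, 0.77 and 0.68 for Cck, and 0.86 and 0.85 for Adcyap1. After LOC100912228 (r = 0.999), Npy was closest to Ruvbl1 (0.96). Vip was closest to Lrmp (0.93) and LOC100363268 (0.91). Without the 2 libraries farthest in Vip, r was 0.74 with Lrmp and -0.09 with LOC100363268.

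The genes that receive, make and remove these peptides did not pass the test either. Of 25 receptor genes listed, 24 were found and 22 tested, 0 were called in either direction (0.0% of all genes), 13 had a higher and 9 a lower mean in morphine-sired rats, and the median log2 difference was 0.05, beside -0.00 over all genes. The neurotensin receptor Ntsr2 was at 208 ± 23.3 TPM in morphine-sired and 186 ± 8.07 TPM in saline-sired rats (SD, n = 6 each), and the log2 difference was 0.15 ± 0.07 (limma's unadjusted p = 0.0491). Ntsr1 was at 8.26 ± 2.04 TPM in morphine-sired and 6.63 ± 0.612 TPM in saline-sired rats (SD, n = 6 each; 0.26 ± 0.13, limma's unadjusted p = 0.0613).

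Of 14 related peptide genes, 12 were found and 6 tested, with 0 called, 5 of 6 higher in the mean and a median of 0.35. Among them Ucn, which encodes urocortin, a relative of Crh, spanned 86.7 to 337 TPM in morphine-sired and 10.5 to 185 TPM in saline-sired rats, with a log2 difference of 0.92 ± 0.58. Saline-sired 6 alone set the lower end, and without it the difference was 0.35 ± 0.28. Sct, which encodes secretin, was at 1.91 ± 0.729 TPM in morphine-sired and 1.31 ± 0.708 TPM in saline-sired rats (SD, n = 6 each). Of 12 genes for peptide processing and release, all were tested and 0 called, 8 with a higher and 4 with a lower mean and a median of 0.05. Cpe, which trims the cut peptides, had a log2 difference of 0.12 ± 0.09, and Pcsk1n, an inhibitor of a precursor-cutting enzyme, one of 0.16 ± 0.15.

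Of 8 genes for peptide breakdown and binding, 7 were tested and 0 called, 3 with a higher and 4 with a lower mean and a median of -0.02. Ece1, an endothelin-converting enzyme that also breaks down substance P and somatostatin inside cells, spanned 28.4 to 40.4 TPM in morphine-sired and 40.5 to 54.2 TPM in saline-sired rats. The groups did not overlap, as for 0.0896% of all genes tested, though the nearest libraries were almost level. Its log2 difference was -0.32 ± 0.10 (limma's unadjusted p = 0.00885, adjusted p = 0.9998), but it was 1.43 ± 0.89 (adjusted p = 0.9995) with annotated transcripts alone, so its direction depends on the assembled ones. Thop1, a peptidase that cuts neurotensin, had a log2 difference of 0.13 ± 0.08.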

How the data were processed

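The deposited files hold polyA RNA sequencing of periaqueductal grey from 12 rats. Per the submitters' processing notes, the tools were DESeq2 1.28.1, FastQC 0.11.9, HISAT2 2.2.0, SAMtools 1.11, StringTie 2.1.2 and Trimmomatic 0.39, with build Rnor_6.0. Per the file headers, StringTie 1.3.6 wrote the transcript files, in which the authors give coverage, FPKM and TPM for 76232 transcripts (41063 annotated, 35169 assembled). A TPM value is relative to its library's total, so abundant transcripts move the rest. The series table of log2 values that the authors deposited was used for its gene names alone, and its 12 numeric columns were not used. No source used here gives the strandedness.

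TPM was summed per gene, and 24540 of 41596 genes, those averaging 0.5 TPM or more, were tested on log2(TPM + 1), a scale that shrinks changes at low levels, with limma 3.58.1 (eBayes with trend, Benjamini-Hochberg adjusted p, threshold 0.05) in R 4.3.3. Of 50419 transcripts tested the same way, 1 was called (0.00198%), and of 16 member transcripts 0. Exact permutation tests used all 924 assignments, and the rest used scipy 1.17.1, pandas 2.3.3, numpy 2.4.6 and matplotlib 3.10.9 in Python 3.11.15. The fits were tested on simulated data.

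The members, gene lists and tests were chosen with earlier results of these data known. Named were the 9 genes, the 2 of each pathway list with the smallest p, and the 2 genes most like each member. Oxt, Avp, Fev, Pcp2, LOC100912228 and the other single markers of the hypothalamic and thalamic lists were named after their values were seen. Alternatives were other pseudocounts, filters, units, normalizations, a serotonergic term, and libraries left out.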

Additional observations from a re-analysis of the deposited data

Results flagged for a closer look

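The TPM of the 9 genes and the shares of the 2 optional exons of Tac1 were checked in each group, 22 groups of values in all, for a library far from the rest (Dixon's test at its 95% critical value of 0.625 for 6 samples). Chance meets this rule in about 1 in 20 groups where values are normally distributed. TPM was not put on a log scale here, and values skewed to the high side can meet the rule more often. It was met 4 times. Vip stood at 28.8 TPM in morphine-sired 3, where the next library of the group was at 13.0, and at 21.9 TPM in saline-sired 2, where the next was at 10.5. Gal stood at 20.0 TPM in morphine-sired 2, where the next was at 6.11. Cck stood at 233 TPM in saline-sired 6, where the next was at 142.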

How the results depend on the processing

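None of the 9 genes was called under any alternative run, and of 207 alternative values of their log2 differences 196 kept their direction and 11 reversed. With 1 library left out in turn, Tac1 ran from 0.23 to 0.53, Cck from 0.18 to 0.43, Gal from -1.41 to -0.49, Crh from -0.41 to -0.093, Nts from -0.24 to 0.16, Sst from -0.29 to 0.10, Vip from -0.11 to 0.34, Adcyap1 from -0.011 to 0.17 and Npy from -0.044 to 0.35. With a serotonergic term Nts was 0.21 and Sst 0.10, without morphine-sired 2 and saline-sired 2 Sst was 0.062, and with annotated transcripts alone Adcyap1 was -0.017 and Ece1, tried after its values were seen, 1.43. Over all genes the calls ran from 0 to 1 with 1 library left out (1 without saline-sired 4 and 1 without saline-sired 6), and there was 1 without morphine-sired 1, saline-sired 1 and saline-sired 6. Of the pairs of members, 6 passed with all libraries, 0 without those 3 and 2 without morphine-sired 2 and saline-sired 2, where fewer libraries were tested. Beyond fewer libraries, the cause was not tested. limma-voom with TMM was planned and not run, since it needs counts. No paired analysis was possible because the labels give no replicate numbers shared between the groups. The part of depth in the width of the intervals was not tested.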
